A study of Rattus norvegicus with 6 samples.

Results

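The prostaglandin genes described here are 10 named genes for the enzymes that make prostaglandins (Ptgs1, Ptgs2, Ptges, Ptgis, Ptgds), the enzyme that inactivates them (Hpgd), 2 transporters (Slco2a1, Abcc4) and 2 receptors (Ptger2, Ptger4). They were chosen by gene name from a table of 33589 rows, and 9 of the 10 had a row under their name. Ptgis, the prostacyclin synthase gene, was not matched and was not analysed here. The choice was made with the stiff against soft values already known, so the values of these genes in that contrast are a description and carry no test. The study sequenced polyA RNA from mesenchymal stem cells (MSCs), a stromal cell type able to form bone, cartilage and fat, taken from rat bone marrow and held for 48 h in a hydrogel labelled SA. In the soft group the gel had a stiffness of 2 kPa and in the stiff group 18 kPa, with 3 libraries in each; the design text mentions quadruplicate samples, and any further one was not analysed here. Medium, serum and antibiotics were the same in both groups, no further agent is named, and the cells were taken out of the gel before library preparation. The strain and age of the rats are not stated, nor is it said whether the replicates were separate cultures. The p-values therefore reflect the spread among these 6 libraries alone, and that spread may be technical.

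Prostaglandins are short-lived lipid signals made from arachidonate, a fatty acid that phospholipases release from membranes. The cyclooxygenases, encoded by Ptgs1 and Ptgs2, turn it into an unstable endoperoxide, and terminal synthases convert this to prostaglandin E2, D2, F2 alpha, prostacyclin or thromboxane. Prostaglandins leave cells partly through Abcc4, are taken up by Slco2a1, are inactivated inside cells by Hpgd, and signal through receptors on the cell surface. Stromal cells of the bone marrow are known for releasing prostaglandin E2, which acts on immune cells.

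The RefSeq table of start sites (build GRCr8) held 9 of the 10 genes. The 250 bases before the start are shown for 3 genes. Their level, as deposited, was higher in every stiff than in every soft library, for Ptgs2 only narrowly. Each is written 5′ to 3′ along the gene's strand, and capitals mark the letters of any motif searched.
Slco2a1, chr8:112467489-112467738, plus strand: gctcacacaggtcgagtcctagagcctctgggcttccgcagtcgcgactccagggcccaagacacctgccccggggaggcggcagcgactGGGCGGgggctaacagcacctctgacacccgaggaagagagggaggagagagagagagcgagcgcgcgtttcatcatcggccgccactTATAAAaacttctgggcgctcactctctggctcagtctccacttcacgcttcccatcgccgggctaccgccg
Ptgs1, chr3:39981169-39981418, plus strand: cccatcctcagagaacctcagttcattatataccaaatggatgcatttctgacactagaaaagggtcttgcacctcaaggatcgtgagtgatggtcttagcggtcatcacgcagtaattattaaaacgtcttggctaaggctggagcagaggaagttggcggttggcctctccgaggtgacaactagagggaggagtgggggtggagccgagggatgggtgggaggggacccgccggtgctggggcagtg
Ptgs2, chr13:64713813-64714062, plus strand: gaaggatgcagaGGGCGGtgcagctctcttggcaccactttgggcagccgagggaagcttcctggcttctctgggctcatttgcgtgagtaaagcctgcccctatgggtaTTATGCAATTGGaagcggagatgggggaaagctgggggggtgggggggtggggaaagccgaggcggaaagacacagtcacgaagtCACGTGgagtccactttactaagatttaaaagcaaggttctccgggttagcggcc

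The motifs were searched on both strands in 33465 windows of the same length. The Slco2a1 window held a TATA box (TATAAA, in 12.9% of all windows) from 72 to 67 bases before the start and a GC box (GGGCGG, 30.5%). The Ptgs2 window held a GC box, an E-box (CACGTG, 5.59%), a C/EBP match (TTNNGNAA, 37.2%) and a CCAAT box (CCAAT, 34.0%), and the last 2 overlapped by 1 base. The Ptgs1 window held none of the motifs searched, which also included the core of the cAMP response element (TGACG, 18.2%), AP-1 (TGANTCA, 6.34%), TEAD (GGAATG, 12.1%), the CArG box (501 windows) and an NF-kB site (3.54%). Neither the CArG box nor the NF-kB site was found in any of the 9 windows. G and C made up 64.4% of the Slco2a1 window, 54.4% of the Ptgs1 window and 57.2% of the Ptgs2 window, against a median of 51.2% over all windows. The windows of the 3 genes shared no searched motif that was present in each, and a match says only that these letters are in the window.

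Levels are in FPKM, the fragments counted per kilobase of gene length and scaled by the authors to library size. Dividing by length allows only a rough comparison between genes, because other differences between genes, such as multiply mapped reads, remain. Whole reads behind each value could be recovered, and they summed to between 14966354 and 16711527 per library. Differences are stiff minus soft on log2(FPKM + 1), with a standard error (SE) from a limma fit over 12713 genes, those whose mean reached 1 FPKM. Of the 9 genes with a row, 7 passed this level filter, and Hpgd and Ptgds did not. The fit called 182 genes at a Benjamini-Hochberg adjusted p of 0.05, 1.43% of those tested, with 128 higher and 54 lower in stiff gel. The split was 88 higher and 68 lower with each library scaled to the same FPKM sum, and 103 and 68 after quantile normalization. Mitochondrial genes took 2.15% of the reads in soft replicate 1 and between 2.85% and 3.33% in the remaining 5 libraries.

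The stromal label was checked against marker lists. Of 12 mesenchymal stromal markers 11 were above the level filter, led by Col3a1 and Col1a1, while Lepr averaged 0.101 FPKM (soft) and 0.142 FPKM (stiff). Macrophage and leukocyte markers were present, with 12 of 15 matched markers above the filter, led by Lyz2 and Adgre1 and none at 0. Their summed level ran from 443.3 to 449.4 FPKM in soft and from 391.8 to 420.7 FPKM in stiff libraries. Lyz2 took the largest part, at 148.9 ± 3.51 (soft) and 119.4 ± 8.38 FPKM (stiff, adjusted p = 0.0606). Csf1r was at 4.81 and 4.87 FPKM and Cd14 at 59.6 and 60.5 FPKM. Of the 12 tested markers 4 had a log2 difference above 0. Limma called 2 lower and 1 higher, against 0.425% and 1.01% of all tested genes. Cd68 fell from 40.4 ± 3.47 to 27.7 ± 1.52 FPKM and Cd53 from 12.6 ± 1.15 to 8.20 ± 0.438 FPKM (SD, n = 3), with adjusted p of 0.0246 and 0.0271. Each passed in only 1 of the 6 fits that left out a library, the fit without soft replicate 1. Adgre1, another macrophage marker, rose from 69.0 ± 1.85 to 84.9 ± 2.24 FPKM (adjusted p = 0.0404) and passed in none of those 6 fits.

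Endothelial markers summed to between 10.1 and 11.8 FPKM in soft and between 10.1 and 13.2 FPKM in stiff libraries, with Cldn5 at 0 and Cdh5 at about 0.010 FPKM in each group. Of 7 mast cell markers none was above the filter, Ms4a2 and Fcer1a were at 0, and the sum stayed at or below 1.90 FPKM. The platelet list was carried by Pf4, at means of 413.7 (soft) and 427.5 FPKM (stiff), while Gp1bb was at 0 and each of the others below 1 FPKM. Smooth muscle markers summed to between 255.3 and 294.7 FPKM in soft and between 536.4 and 600.8 FPKM in stiff libraries. Tagln and Acta2 led this sum, and both rose (adjusted p = 0.00266 and 0.00111). Of the 7 markers 4 were called higher, with Cnn1 and Actg2 the others, against 1.01% of all tested genes. Myh11 (means of 1.52 in soft and 1.85 FPKM in stiff gel), Des (1.20 and 1.48 FPKM) and Smtn (29.1 and 32.6 FPKM) were not called (adjusted p = 0.494, 0.715 and 0.401). In bulk RNA, fewer cells of a type and less RNA per cell cannot be told apart, and the part of macrophage or smooth muscle markers in the results below was not tested.

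Slco2a1 encodes the transporter that carries prostaglandins into cells, where they are broken down. It lies on chromosome 8 from 111495331 to 111577833 (plus strand) in the table's coordinates, whose build is not named. It stood at 4.80, 4.54 and 4.74 FPKM in the soft libraries, replicates 1 to 3 in turn, and at 11.3, 9.95 and 9.90 FPKM in the stiff libraries, as in all such series of values below. The groups did not overlap, and the gap between them was wider than the range within either group. The means were 4.70 ± 0.136 and 10.4 ± 0.801 FPKM (SD, n = 3), a ratio of 2.21, and the log2 difference was 1.00 with an SE of 0.0770. The recovered reads were 324, 299 and 310 in the soft and 677, 646 and 666 in the stiff libraries.

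Abcc4 encodes an efflux pump that exports prostaglandins along with other organic anions and cyclic nucleotides. It was at 8.31, 8.84 and 8.46 FPKM in the soft and 7.84, 8.64 and 7.68 FPKM in the stiff libraries, and the groups overlapped. The log2 difference was -0.08 with an SE of 0.0715. The order of the 2 transporters therefore differed between the gels. In each soft library Abcc4 stood above Slco2a1, and in each stiff library Slco2a1 stood above Abcc4. Slco2a1 made up 36.6%, 33.9% and 35.9% of the summed FPKM of the pair in the soft libraries and 59.1%, 53.5% and 56.3% in the stiff ones, by replicate.

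**Figure D1:**
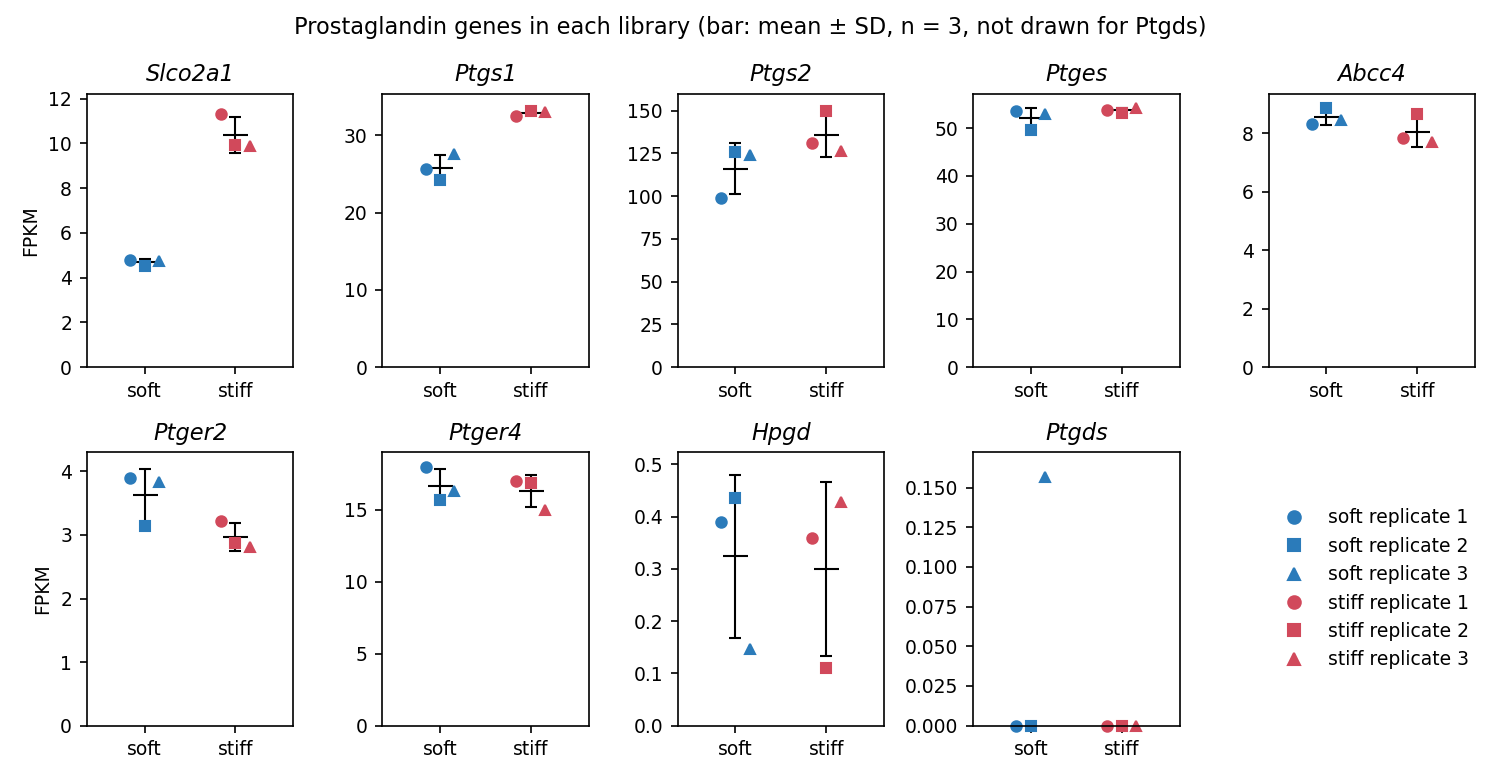
FPKM (vertical axes, each from 0) of the 9 matched prostaglandin genes in the 3 soft (blue) and 3 stiff (red) libraries; points are libraries, shaped by replicate, and bars are mean ± SD. Slco2a1 goes from between 4.54 and 4.80 to between 9.90 and 11.3 FPKM. Ptgs1 and Ptgs2 part without overlap by smaller amounts, and the other genes overlap between the gels. For Ptgs2, soft replicate 2 (125.9 FPKM) and stiff replicate 3 (126.2 FPKM) are nearly level.

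Ptgs1 encodes the cyclooxygenase that most tissues make at a steady level. It lies on chromosome 3 from 15560712 to 15582344 (plus strand). It was at 25.7, 24.3 and 27.5 FPKM in the soft and 32.5, 33.2 and 33.1 FPKM in the stiff libraries. Each stiff library was above each soft one, and the stiff libraries lay closer together than the soft ones. The means were 25.8 ± 1.63 and 32.9 ± 0.352 FPKM, a ratio of 1.27, and the log2 difference was 0.34 with an SE of 0.0614.

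Ptgs2 encodes the inducible cyclooxygenase, which inflammatory cytokines and growth factors raise in many cells. It lies on chromosome 13 from 67351087 to 67359335 (plus strand). It was the most abundant of the 9 genes, above 95.7% of all tested genes by mean FPKM. The soft libraries held 98.7, 125.9 and 123.8 FPKM and the stiff libraries 130.9, 149.8 and 126.2 FPKM. Soft replicate 1 was low and stiff replicate 2 high, while soft replicate 2 and stiff replicate 3 were nearly level. The FPKM of all genes summed to 456786 in soft replicate 2 and 478304 in stiff replicate 3. With each library scaled to the same FPKM sum, the Ptgs2 groups would overlap. The means were 116.1 ± 15.2 and 135.6 ± 12.5 FPKM, and the log2 difference was 0.23 with an SE of 0.108. Without soft replicate 1 it was 0.11 and without stiff replicate 2 it was 0.15.

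Ptgs2 transcripts outweighed Ptgs1 in every library. Ptgs2 made up 79.4%, 83.8% and 81.8% of the summed FPKM of the pair in the soft libraries and 80.1%, 81.9% and 79.2% in the stiff ones, by replicate. These shares overlapped between the gels, at 81.7% ± 2.24 in soft and 80.4% ± 1.35 in stiff gel.

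Ptges encodes the inducible, membrane-bound prostaglandin E synthase, which is often made together with Ptgs2. It lies on chromosome 3 from 9727408 to 9738752 (minus strand). It was at 53.6, 49.6 and 53.0 FPKM in the soft and 53.7, 53.1 and 54.3 FPKM in the stiff libraries. Only soft replicate 2 stood a little below the rest, and the groups overlapped. The log2 difference was 0.04 with an SE of 0.0520, and it was -0.0043 with each library scaled to the same FPKM sum. As a percentage of Ptgs2, Ptges was highest in soft replicate 1, at 54.3%, and ran from 35.4% to 43.0% in the other 5 libraries.

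The other prostaglandin E synthases were also present. Ptges3, known as a partner of the heat shock protein Hsp90, was at 72.5 ± 6.07 and 81.9 ± 7.90 FPKM (adjusted p = 0.413), and reads of its near copies may be counted with it. Ptges2 was at 8.60 ± 1.52 and 9.28 ± 1.33 FPKM (adjusted p = 0.788). Ptges made up 39.1% ± 2.36 of the summed FPKM of the 3 genes in soft and 37.1% ± 1.94 in stiff gel.

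The genes for prostaglandin D2 synthesis had few reads. Ptgds encodes the lipocalin-type prostaglandin D synthase, and it had 2 reads in soft replicate 3 and is listed at 0 in the other 5 libraries. A count of 3 reads, set here as a floor, would correspond to between 0.227 and 0.256 FPKM for a gene of its length. Levels below that rest on too few reads to compare. Hpgds, the other prostaglandin D synthase gene, which is typical of mast cells and other blood cells, was at 0.156 and 0.251 FPKM, also under the level filter.

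Hpgd encodes the dehydrogenase that inactivates prostaglandins once Slco2a1 has brought them in. It was at 0.391, 0.437 and 0.146 FPKM in the soft and 0.360, 0.111 and 0.427 FPKM in the stiff libraries. These values rest on 11, 12 and 4 reads in the soft and 9, 3 and 12 reads in the stiff libraries. The groups overlapped across their whole range, and at 27 against 24 reads in all no difference was detectable at this depth.

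**Figure D2:**
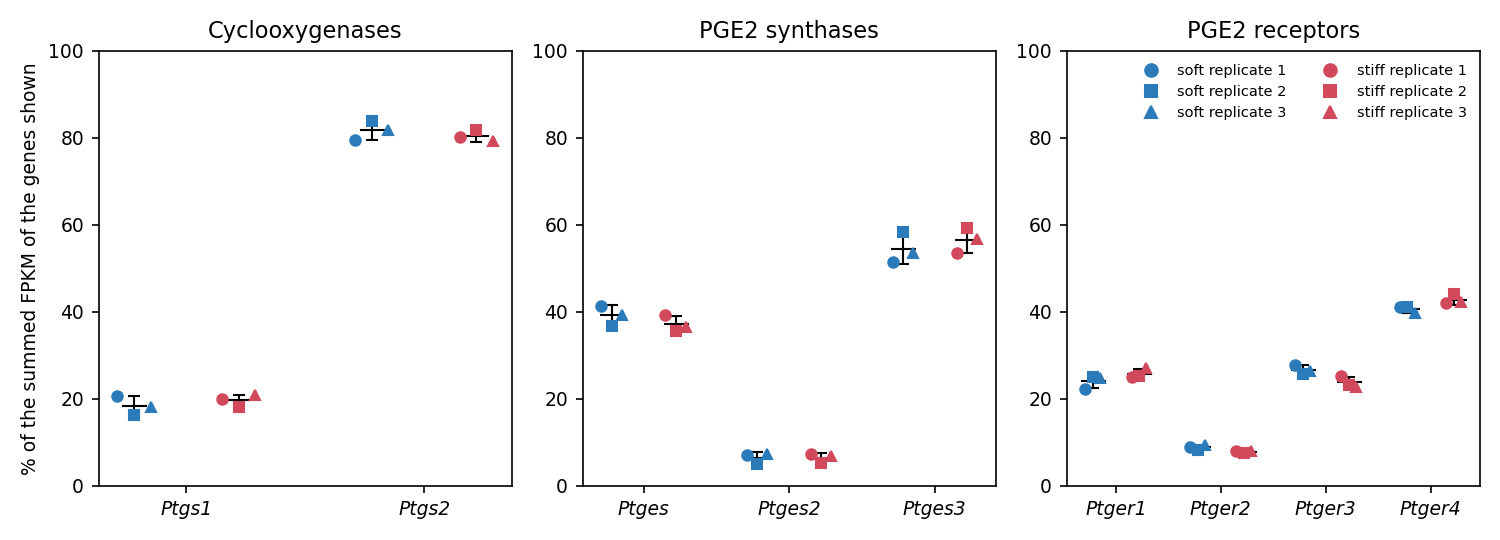
Share (%) that each gene took of the summed FPKM of its family, for the cyclooxygenases, the prostaglandin E2 synthases and the prostaglandin E2 receptors; points are the 3 soft (blue) and 3 stiff (red) libraries and bars are mean ± SD. Ptgs2 stays between 79.2% and 83.8% of the cyclooxygenase pair. Ptger4 is the largest receptor share in all 6 libraries. Its share is higher in each stiff than in each soft library, and the Ptger2 and Ptger3 shares are lower. The FPKM of each receptor gene overlapped between the gels.

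Ptger2 and Ptger4 encode the prostaglandin E2 receptors EP2 and EP4, which both raise cyclic AMP through the G protein Gs. Ptger4 lies on chromosome 2 from 54952821 to 54963448 (minus strand) and was at 18.0, 15.7 and 16.3 FPKM in the soft and 17.0, 16.9 and 15.0 FPKM in the stiff libraries. The groups overlapped, with a log2 difference of -0.03 and an SE of 0.0780. That difference was above 0 without soft replicate 1 (0.026) and without stiff replicate 3 (0.027).

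Ptger2 lies on chromosome 15 from 19338175 to 19350210 (plus strand) and was at 3.89, 3.15 and 3.83 FPKM in the soft and 3.22, 2.87 and 2.81 FPKM in the stiff libraries. Soft replicate 2 lay just under stiff replicate 1, and the other soft libraries were above all stiff ones. The means were 3.62 ± 0.413 and 2.97 ± 0.223 FPKM, and the log2 difference was -0.22 with an SE of 0.104. Between 91 and 128 reads stood behind each value.

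Ptger1 and Ptger3 encode the other two prostaglandin E2 receptors; Ptger3 mainly lowers cyclic AMP and Ptger1 is linked to calcium signals. Ptger1 was at 9.81 ± 0.292 and 9.81 ± 0.307 FPKM (adjusted p = 1.00) and Ptger3 at 10.9 ± 1.21 and 9.07 ± 1.07 FPKM (log2 difference -0.24, adjusted p = 0.337). Of the summed FPKM of the 4 receptors, Ptger4 held between 39.6% and 41.1% in the soft and between 41.9% and 44.0% in the stiff libraries. Ptger2 held between 8.26% and 9.33% in the soft and between 7.49% and 7.94% in the stiff libraries. Ptger3 held between 25.6% and 27.8% in the soft and between 22.8% and 25.1% in the stiff libraries. These ranges did not overlap, with the Ptger4 share higher and the Ptger2 and Ptger3 shares lower in stiff gel, while the Ptger1 shares overlapped. The 4 shares are parts of the same sum and so depend on each other. The FPKM of each of the 4 genes overlapped between the gels, and the level of Ptger4 itself was not higher (log2 difference -0.03).

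By mean level in soft gel, the order was Ptgs2, Ptges, Ptgs1, Ptger4, Abcc4, Slco2a1, Ptger2, Hpgd and Ptgds. In stiff gel Slco2a1 and Abcc4 changed places and the rest of the order was the same. Neighbours in either order did not overlap in their 3 libraries, apart from Hpgd and Ptgds in soft gel.

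Of the 7 genes above the level filter, 1 was called, Slco2a1, against 1.43% of all tested genes. In 3 of the 7 the groups did not overlap in FPKM as deposited, against 22.6% of all tested genes in either direction. Stiff was above soft in all 3, for Ptgs2 only narrowly. Of the 7, 4 had a log2 difference above 0, against 50.4% of all tested genes, and the median was 0.04 against 0.00 over all. As these genes were chosen with this contrast known, nothing is read from these counts.

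**Figure D3:**
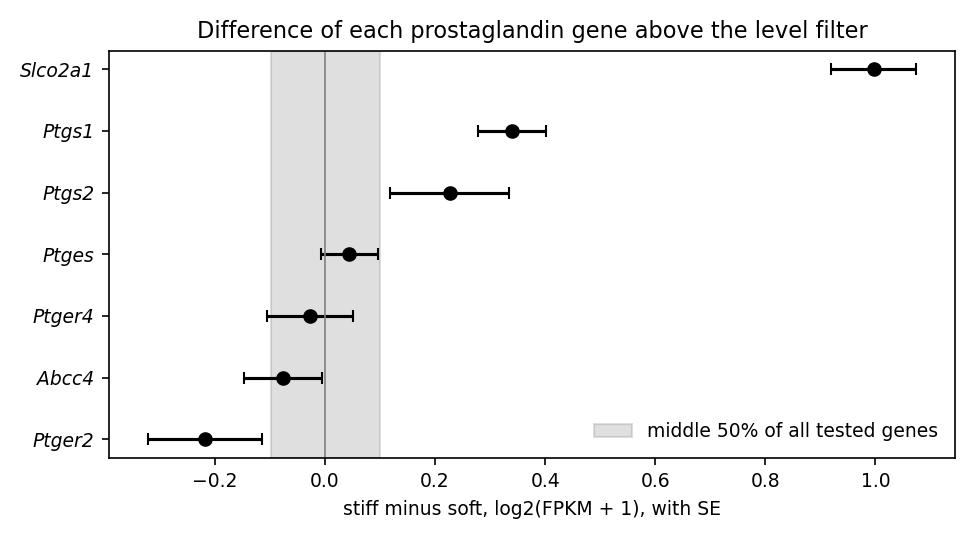
Stiff minus soft difference on log2(FPKM + 1), with its SE (horizontal bars), for the 7 prostaglandin genes above the level filter. Slco2a1 is at 1.00, Ptgs1 at 0.34 and Ptgs2 at 0.23, Ptger2 is at -0.22, and the other 3 lie within the grey band that holds the middle 50% of all tested genes.

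Around these genes, 118 further genes of prostanoid supply, synthesis, breakdown, transport and signalling were listed for their role, with earlier results of these data known. Of them 114 had a row and 86 were above the level filter. With limma 1 of 86 rose and none fell, against 1.01% of all tested genes called higher and 0.425% called lower. Voom on recovered reads called 5 of the 86, against 326 of all 12713 tested genes. Before adjustment 20 of the 86 were below 0.05, and the share of all tested genes below it was not counted. Nothing is therefore read from counts before adjustment, here or in the lists below. In 29 of the 86 the groups did not overlap, 33.7% against 22.6% of all tested genes, and the median log2 difference was 0.01.

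The 1 gene that rose was Pla2g2a, which encodes a secreted phospholipase that releases fatty acids from membranes and is induced by inflammatory cytokines. It was also the most abundant gene of the 86. It was at 434.4, 455.6 and 460.9 FPKM in the soft and 557.5, 534.0 and 576.7 FPKM in the stiff libraries. All stiff libraries were above all soft ones, with means of 450.3 ± 14.0 and 556.1 ± 21.4 FPKM (log2 difference 0.30, SE 0.0499, adjusted p = 0.0395). The call held in 3 of 13 alternatives, over which the adjusted p ran from 0.0197 to 0.155, and in none of the 6 fits that left out a library.

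The other 9 tested genes of arachidonate release did not pass (the list had 4 genes below 0.05 before adjustment, and voom called 1, Pla2g2a). Anxa1, whose protein annexin A1 restrains phospholipase A2, was at 295.1 ± 21.8 and 362.3 ± 15.9 FPKM (log2 difference 0.30, adjusted p = 0.0946), and its groups did not overlap. Pla2g6 was at 11.96 ± 0.536 and 10.6 ± 0.462 FPKM (-0.16, adjusted p = 0.306) and Pla2g4b at 5.52 ± 0.563 and 4.56 ± 0.389 FPKM (-0.23, adjusted p = 0.322). In both of these phospholipase genes each stiff library was below each soft one, and the median of the list was -0.05. Pla2g4a, the cytosolic phospholipase best known for feeding cyclooxygenases, was at 19.1 ± 1.30 and 19.4 ± 1.02 FPKM (adjusted p = 0.907). Among 6 tested genes that re-esterify arachidonate or make it from precursors, none passed limma's test (1 below 0.05 before adjustment, 0 by voom). Lpcat3 was at 50.7 and 51.1 FPKM and Elovl5 at 47.8 and 52.0 FPKM. The gene below 0.05 before adjustment was Fads2, a fatty acid desaturase, at 17.0 ± 1.52 and 22.7 ± 1.72 FPKM (adjusted p = 0.0880).

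**Figure D4:**
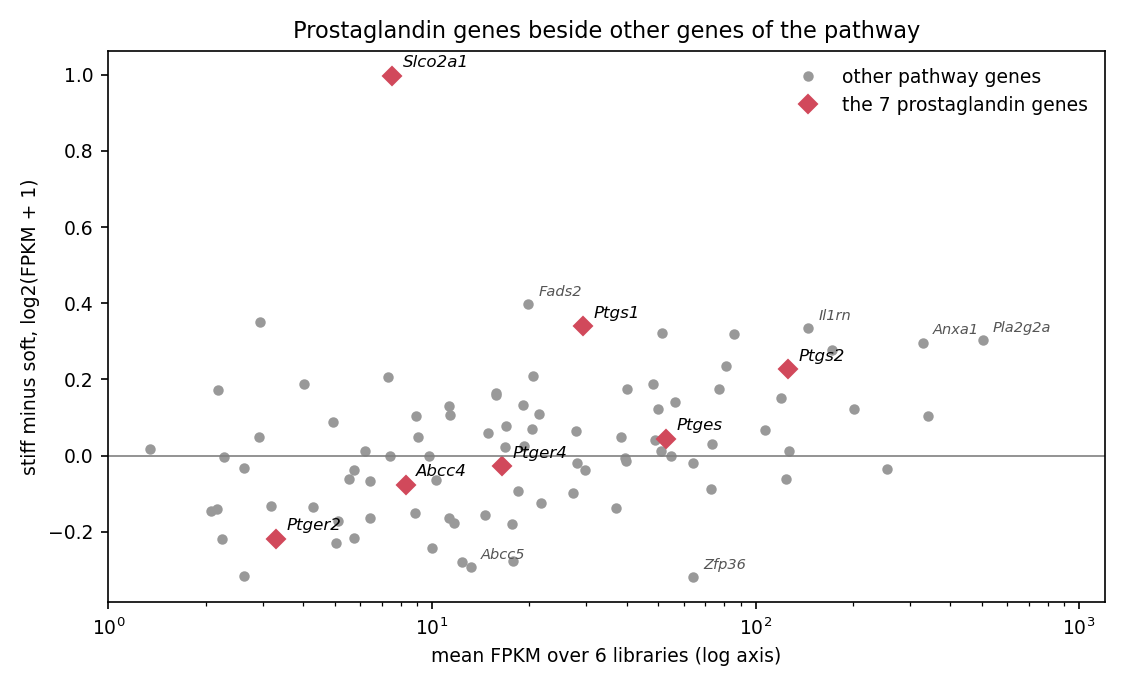
Stiff minus soft difference on log2(FPKM + 1) against mean FPKM over the 6 libraries (log axis) for the 7 prostaglandin genes (red diamonds) and the 86 other tested genes of the pathway (grey points). Slco2a1 stands at 1.00, and the 86 others lie between the values of Zfp36 (-0.32) and Fads2 (0.40), with Pla2g2a the most abundant.

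None of 5 other tested prostaglandin and thromboxane synthase genes passed limma's test (1 below 0.05 before adjustment, 0 by voom). Akr1b1, an aldose reductase that can make prostaglandin F2 alpha, was at 113.2 ± 0.752 and 125.8 ± 5.59 FPKM (adjusted p = 0.221). Tbxas1, the thromboxane synthase gene, which macrophages and platelets express, was at 2.99 ± 0.297 and 2.24 ± 0.584 FPKM (adjusted p = 0.383). Cbr1, a carbonyl reductase gene, is listed at 0 in all 6 libraries. None of 4 tested genes for breakdown passed either (0 below 0.05 before adjustment, 0 by voom), with Ptgr1 at 45.0 and 51.4 FPKM and Ptgr2 at 14.5 and 15.2 FPKM.

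Among 5 other tested receptor genes, none passed limma's test (0 below 0.05 before adjustment, 0 by voom), and in none did the groups part. Ptgfr, the prostaglandin F receptor gene, was the most abundant prostanoid receptor, at 72.4 ± 6.25 and 73.9 ± 4.92 FPKM, and Ptgfrn, a negative regulator of that receptor, was at 126.7 ± 1.82 and 127.8 ± 2.26 FPKM. Ptgir, the prostacyclin receptor gene, was at 6.58 ± 0.382 and 6.25 ± 0.588 FPKM.

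Of 15 other Slco and Abcc transporter genes with a row, 7 were above the level filter, as were 12713 of all 33589 rows. None of the 7 passed limma's test (3 below 0.05 before adjustment, 1 by voom). Abcc1 was at 19.7 ± 1.26 and 16.0 ± 0.945 FPKM (log2 difference -0.28, adjusted p = 0.136). Abcc5 was at 14.6 ± 0.316 and 11.7 ± 0.739 FPKM (-0.29, adjusted p = 0.0978) and was the gene called with voom. Slco3a1, which can also carry prostaglandins, was at 2.48 ± 0.423 and 3.41 ± 0.238 FPKM (0.35, adjusted p = 0.224).

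Of 12 genes of the leukotriene branch, the other main fate of arachidonate, 5 were above the level filter, and Alox5 and Ltc4s were under it. None of the 5 tested passed limma's test (0 below 0.05 before adjustment, 0 by voom), with Lta4h at 30.0 ± 0.299 and 29.2 ± 0.359 FPKM and Ptgr1 counted here too.

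Downstream of EP2 and EP4, none of 17 tested genes of Gs and cyclic AMP signalling passed limma's test (3 below 0.05 before adjustment, 0 by voom). Gnas, which encodes the Gs alpha subunit, was at 74.3 ± 0.576 and 87.7 ± 4.81 FPKM (log2 difference 0.24, adjusted p = 0.104), and Prkar1a, a regulatory subunit of protein kinase A, at 258.4 ± 5.56 and 252.2 ± 4.99 FPKM. None of 15 tested genes known to respond to cyclic AMP passed (6 below 0.05 before adjustment, 1 by voom), with Rgs2 at 193.4 ± 6.52 and 210.8 ± 8.05 FPKM (adjusted p = 0.314). Cited2, the one called with voom, was at 76.2 ± 4.02 and 95.4 ± 3.81 FPKM (0.32, adjusted p = 0.0530).

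None of 15 tested inducers and regulators of Ptgs2 and Ptges passed limma's test (3 below 0.05 before adjustment, 2 by voom). The transcription factor genes Cebpb and Cebpd were at 330.5 and 353.8 FPKM and at 155.3 and 188.1 FPKM. Il1b, an inducer of both enzymes, was at 53.6 ± 2.75 and 59.2 ± 4.81 FPKM (adjusted p = 0.417). The 2 called with voom were Il1rn, which encodes the interleukin 1 receptor antagonist, at 128.7 ± 7.37 and 162.4 ± 6.69 FPKM (0.33, adjusted p = 0.0503), and Zfp36, whose protein speeds the decay of Ptgs2 and cytokine messages, at 71.2 ± 3.31 and 56.8 ± 2.46 FPKM (-0.32, adjusted p = 0.0530). Zfp36 was called lower with each library scaled to the same FPKM sum and after quantile normalization, settings in which Pla2g2a was not called.

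Profiles over the 6 libraries were compared by the root mean square distance of log2(FPKM + 1) centred on each gene's mean. The closest to Slco2a1 was Ccn2, a matricellular protein gene, at a distance of 0.0670, then Knstrn, a kinetochore protein gene (0.0957), Tagln and Myl9 of the contractile apparatus (0.0971 and 0.133) and Cd55, a complement regulator gene (0.134). The median distance to Slco2a1 over all tested genes outside the set was 0.516. Each of these 5 genes was lower in all soft than in all stiff libraries. This follows from choosing them for closeness to Slco2a1 and is not a separate result. The closest to Ptgs2 were Cse1l (0.0212), an unnamed transcript (0.0253), Tbc1d8b (0.0315), Erlec1 (0.0328) and Slc25a32 (0.0347), against a median distance of 0.211. These genes shared with Ptgs2 a lowest value in soft replicate 1 and a highest in stiff replicate 2, which likewise follows from how they were chosen.

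**Figure D5:**
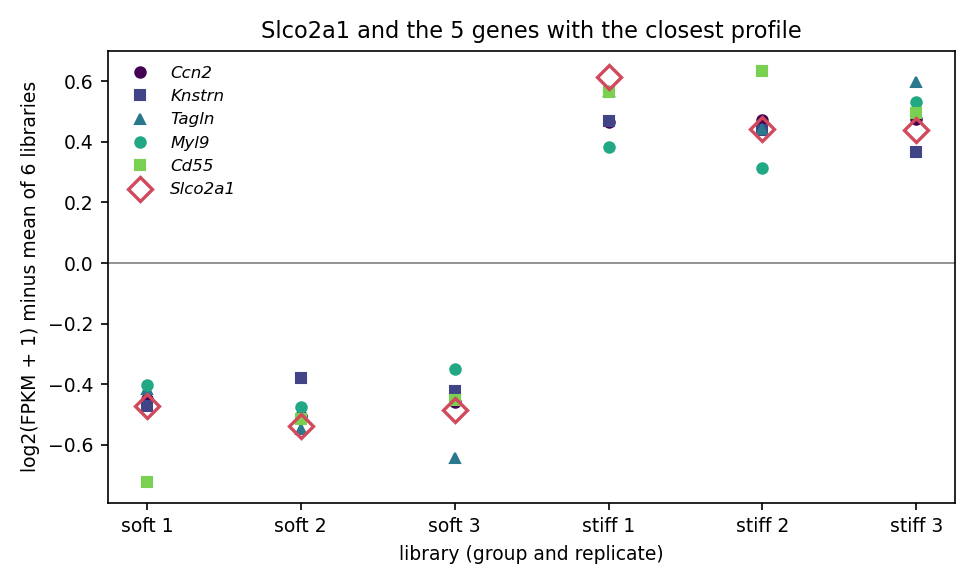
Log2(FPKM + 1) minus its mean over the 6 libraries (vertical axis) in each library (horizontal axis) for Slco2a1 (open diamonds) and the 5 genes closest to it in profile. All 6 genes lie below 0 in the soft and above 0 in the stiff libraries, which for the 5 follows from how they were chosen.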

How the data were processed

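PolyA libraries of 6 samples were made with a QIAGEN kit for single-cell RNA (QIAseq FX), per the labels' protocols. The deposited table held FPKM from the authors. Tools named in the submitters' processing notes are HTSeq, Bowtie 0.12.9 and Cufflinks 2.1.1. The notes list the mouse builds mm10 and GRCm38, but the gene identifiers are rat Ensembl ones and no build stands in the table. How strand and multiply mapped reads were handled is not stated.

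FPKM times gene length was a whole multiple of 1 step per library for 100% of values above 0 (within 0.001), which gave reads per gene. Stiff was compared with soft by limma 3.58.1 in R 4.3.3 on log2(FPKM + 1), with group as the only term, a variance trend, two-sided tests and Benjamini-Hochberg adjustment over genes whose mean reached 1 FPKM. Adding 1 understates the change of low genes. The script was tested on simulated data. Replicates differed by more than sampling noise (chi-square per degree of freedom 3.76 or more in each pair).

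The members and lists were chosen with earlier results of these data known. Named genes were all members; in each pathway list, called genes and the 2 most abundant; in marker lists, those at 0 and up to 2 called; and the 5 nearest profiles of Slco2a1 and Ptgs2. Pla2g4a, Pla2g4b, Pla2g6, Fads2, Ptger1, Ptger3, Ptgir, Ptges2, Hpgds, Tbxas1, Cbr1, Slco3a1, Alox5, Ltc4s, Cited2, Il1b, Il1rn, Zfp36, Adgre1, Col1a1, Col3a1, Lyz2, Pf4, Lepr and Cdh5 were named after their values were seen. The same holds for Cnn1, Actg2, Myh11, Des, Smtn, Csf1r and Cd14. Alternatives changed the pseudocount, filter, scaling and test, added the replicate number, or left out a library.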

Additional observations from a re-analysis of the deposited data

How the results depend on the processing

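The count of 182 called genes became 92 with no level filter, 326 with voom on recovered reads and between 27 and 159 when 1 library was left out. Of the 7 tested prostaglandin genes, 1 was called in the main fit and in each fit without 1 library. With a filter at 5 FPKM, Slco2a1 and Ptgs1 were called (2 of 6 tested, against 218 of 8882 over all genes). Voom called the same genes (2 of 7, against 326 of 12713). As these genes were chosen with this contrast known, nothing is read from their calls in any setting. Of the other pathway genes, 1 of 86 was called in the main fit and between 0 and 1 with 1 library left out. With no level filter 0 of 110 were called, against 92 of 20495 over all genes. A filter at 5 FPKM gave 4 of 72, against 218 of 8882, and voom gave 5 of 86, against 326 of 12713. The log2 difference of Ptges was -0.0043 with each library scaled to the same FPKM sum. That of Ptger4 was 0.026 without soft replicate 1 and 0.027 without stiff replicate 3, in a range from -0.067 to 0.027 with 1 library left out. The cause was not tested. Over the 13 alternatives the log2 difference of Slco2a1 lay between 0.94 and 1.13, and those of Ptgs1 and Ptgs2 lay between 0.29 and 0.39 and between 0.11 and 0.29.

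With the replicate number as a block, 105 genes were called, 1 prostaglandin gene (Slco2a1) and 1 other pathway gene (Il1rn in place of Pla2g2a). Whether the numbers pair the libraries is not settled, as 3 libraries per group cannot exclude a weak pairing. Correlations of same-numbered deviations, across genes, were 0.0552, 0.116 and -0.0785. Soft replicate 1 was closest to stiff replicate 3 (0.137), and soft replicates 2 and 3 were closest to stiff replicate 2 (0.116 and 0.0986). At the recovered depth, Hpgd and Ptgds were too thinly read for a comparison.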
